A study of Mus musculus with 2 samples.

Results

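Cytosolic ribosomal protein genes encode the protein part of the ribosome that translates messenger RNA in the cytoplasm, and the set described here comprised 85 protein coding genes of the 43346 Ensembl genes tabulated. Members were chosen by symbol: Rpl or Rps followed by a digit, or Rplp0, Rplp1, Rplp2 or Rpsa, leaving out pseudogene symbols, the Rps6k kinases and Rps19bp1. They comprised 46 canonical genes of the large (60S) subunit, 31 canonical genes of the small (40S) subunit and 8 paralogs (Rpl3l, Rpl7l1, Rpl10l, Rpl22l1, Rpl36al, Rpl39l, Rps27l and Rps27rt). The genes Fau and Rack1, which also encode ribosomal proteins, fall outside the rule by their symbols and are given separately.

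Total RNA was sequenced from 2 libraries of hematopoietic stem cells, the bone marrow cells that renew themselves and produce all blood lineages, each library starting from 100 cells. Both came from adult male C57BL/6J mice aged 5 to 6 weeks, form a single group, and are numbered 1 and 2 as biological replicates. They share a donor identifier, so it is not known whether separate animals were used, and the spread between them may be technical. The gating of the cells is not described in the sources used here, and with 1 group the values answer how much of each gene the cells carried and how closely the replicates agreed.

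A ribosome holds a single copy of most ribosomal proteins, and cells coordinate their production, largely by holding back or releasing translation of the mRNAs through a pyrimidine tract at the 5′ end. Surplus proteins are degraded, and free Rpl5 and Rpl11 bind the p53 regulator Mdm2. Hematopoietic stem cells are known for a low rate of protein synthesis, and the blood disease Diamond-Blackfan anemia in humans arises mostly from loss of a single copy of a ribosomal protein gene.

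Expected counts on Ensembl genes summed to 48307557 in replicate 1 and 28945011 in replicate 2, and members held 585848 and 279510 of them. Levels are in TPM, an abundance per transcript length scaled to 1 total for every library, and nuclear protein coding genes held 30.0% and 26.5% of all TPM. Of 9 stem cell markers 8 were detected in both libraries, against 45.5% of nuclear protein coding genes. The exception was Slamf1, at 2.87 TPM (replicate 1) and 0.36 TPM (replicate 2). The 9 summed to 509 and 372 TPM but did not share a direction. In TPM, 6 were higher in replicate 1, among them Mecom at 52.0 and 17.9 TPM. Kit (107.5 and 117.0 TPM), Procr (3.29 and 6.48 TPM) and Gata2 (12.8 and 18.9 TPM) were higher in replicate 2. The 6 neutrophil markers summed to 0.5 TPM in replicate 1, with S100a8 and Ltf at 0, and to 315 TPM in replicate 2. The 5 B lineage markers summed to 7.37 and 30.6 TPM, with Cd79b, Pax5 and Igll1 at 0 in replicate 1. Cd79a did not differ in this way, at 7.36 and 7.43 TPM. The 4 T and NK markers summed to 48.2 and 63.1 TPM and did not share a direction. Nkg7 had 36.2 and 55.8 TPM and Lck 1.19 and 6.95 TPM, while Klrb1c had 7.24 and 0.43 TPM and Cd3e 3.56 and 0 TPM. The part of these other cells in the member levels was not tested, and fewer cells of a type cannot be told apart from less RNA per cell.

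Nearly every member was present in both stem cell libraries. Detection required at least 1 TPM and 10 expected counts, and 82 of 85 members met this in both, against 45.5% of 21461 nuclear protein coding genes. All 77 canonical genes were among them, with expected counts of 339 to 49720 in replicate 1 and 287 to 24324 in replicate 2. The 3 exceptions were the paralogs Rpl3l, Rpl10l and Rpl39l.

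The member median was 221 ± 18.6 TPM (SD, n = 2), from 234 TPM in replicate 1 and 208 TPM in replicate 2. Protein coding genes detected in both libraries had medians of 14.0 and 12.5 TPM. Members held 9.45% of protein coding TPM in replicate 1 and 8.99% in replicate 2 (9.22% ± 0.33, SD, n = 2). By expected counts, which are not divided by length, the shares were 3.00% and 2.68%. Among the 100 most abundant protein coding genes, 39 were members in each library, and 74 of the 77 canonical genes were among the top 1000 in each. The canonical genes are short, with a median length of 670 bases, against 2361 bases for coding genes detected in both libraries. Transcripts under 600 bases made up 44.2% of them and 1.87% of the detected coding genes. Within the 77, level and length had Spearman's rho of 0.07 in replicate 1 and 0.10 in replicate 2, given as a description across genes of the same libraries. The extraction kept RNA over 200 bases per the labels, and very short transcripts such as Rps27, listed at 255 bases, lie near that limit.

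The subunits had similar medians. The 46 genes of the 60S subunit had medians of 280 TPM (replicate 1) and 240 TPM (replicate 2), against 273 and 229 TPM for the 31 genes of the 40S subunit. The log2 ratio of the medians was 0.04 and 0.06 (0.05 ± 0.02, SD, n = 2), the 60S median being slightly higher in both libraries. Each gene's level differed far more than this within a subunit. The canonical genes spanned 16.9 to 1509 TPM in replicate 1 and 31.2 to 1083 TPM in replicate 2, with quartiles at 133 and 468 TPM in replicate 1 and at 129 and 406 TPM in replicate 2. Within 2-fold of their own library's median lay 42 and 50 of the 77 genes.

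**Figure D1:**
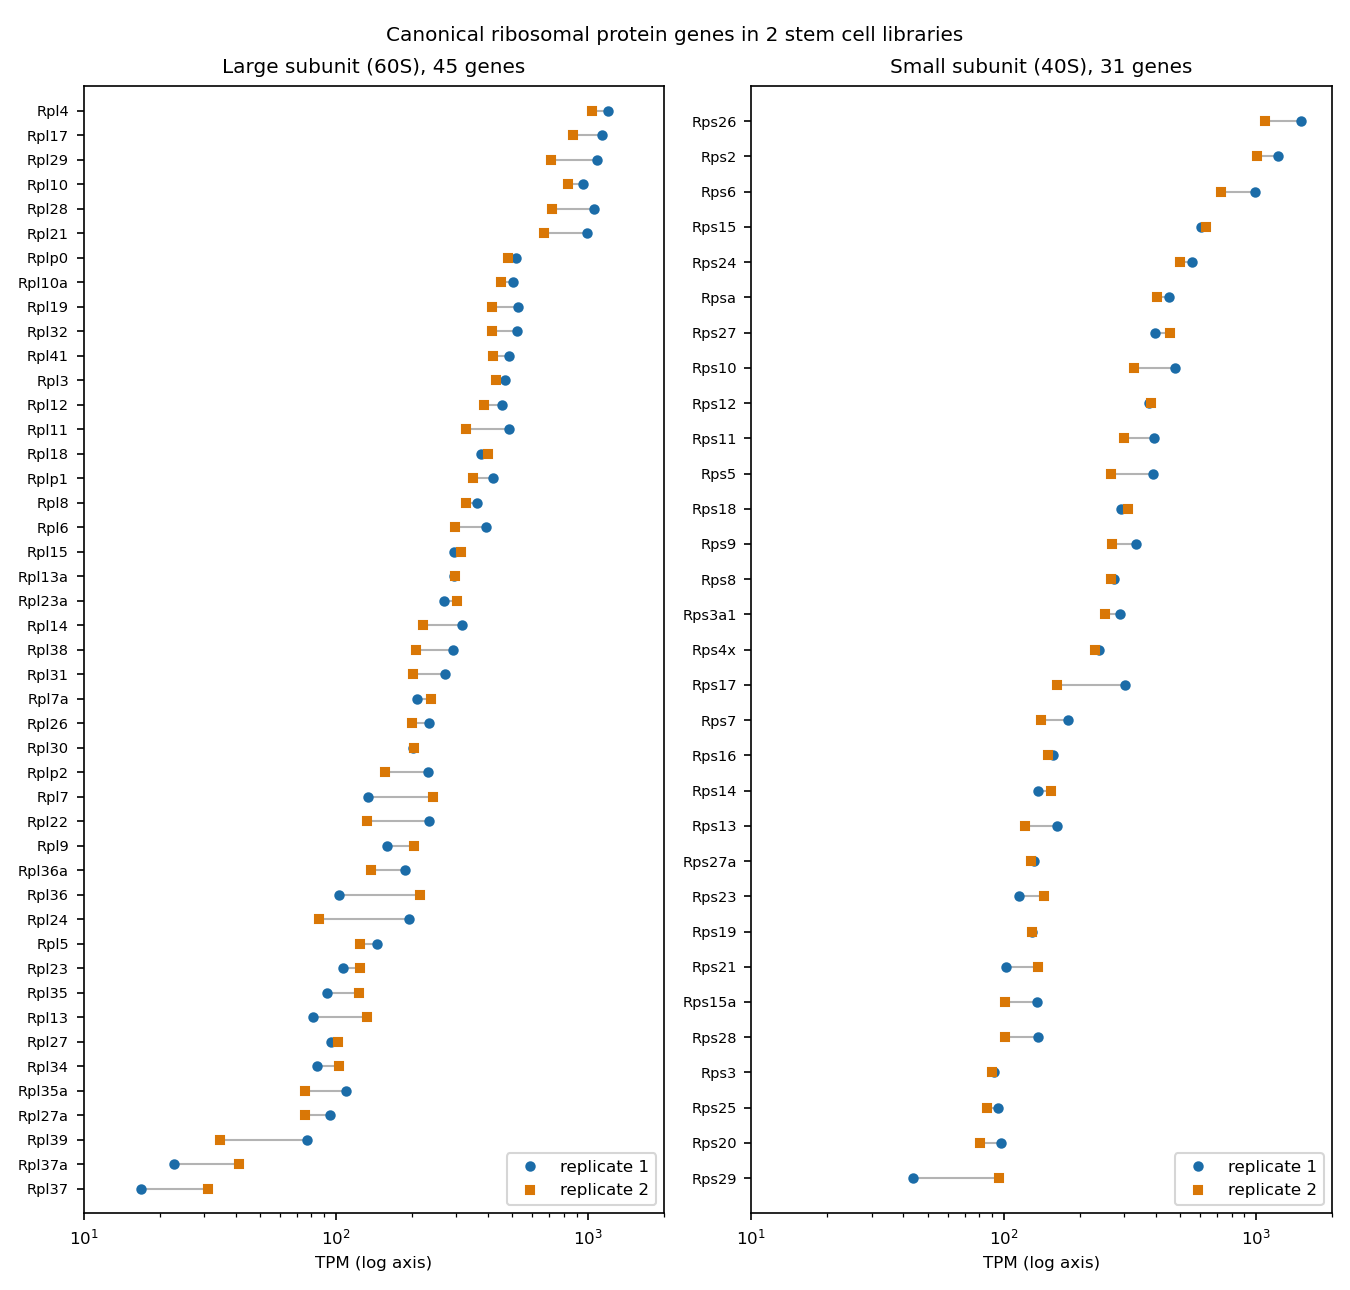
Level of 76 canonical genes in TPM on a log axis, with 45 genes of the 60S subunit on the left, 31 of the 40S subunit on the right, circles for replicate 1 and squares for replicate 2. Rps26 and Rpl4 head the subunits at 1509 and 1192 TPM in replicate 1, and Rpl37 is lowest at 16.9 TPM.

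Rps26, a 40S protein at the mRNA exit channel, was the most abundant member. Its gene lies on the minus strand at chr10:128624534-128626747 of mm10, and its level was 1509 TPM in replicate 1, with 1083 TPM in replicate 2. Rps2, a 40S protein near the mRNA entry, had 1223 and 1012 TPM. Rps6, the 40S protein phosphorylated downstream of mTOR, had 988 and 728 TPM.

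The others of the 10 highest belonged to the 60S subunit. Rpl4, which lines the tunnel through which the new peptide leaves, had 1192 and 1037 TPM. Rpl17, which lies at the tunnel's exit, had 1137 and 869 TPM. Rpl10, which joins the subunit late, in the cytoplasm, had 956 and 828 TPM. Rpl29, Rpl28 and Rpl21 ranged from 988 to 1086 TPM in replicate 1 and from 670.5 to 716 TPM in replicate 2. All 10 were higher in replicate 1 as deposited and under each scaling tried, in TPM by at most 1.53-fold.

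The lowest canonical genes included those for the zinc-binding 60S proteins Rpl37, with 16.9 TPM (replicate 1) and 31.2 TPM (replicate 2), and Rpl37a, with 22.9 and 41.2 TPM. Rpl39, a small protein of the exit tunnel, had 76.9 and 34.8 TPM. Rps29, a zinc-binding 40S protein, had 43.5 and 95.5 TPM. These 4 did not share a direction, since Rpl39 was higher in replicate 1 and the other 3 in replicate 2. Rpl27a, Rps20, Rps25, Rpl35a, Rpl34 and Rps3, a 40S protein at the mRNA entry that also acts in DNA repair, completed the lowest 10 at 83.9 to 109.6 TPM in replicate 1 and 75.2 to 102.5 TPM in replicate 2. The 10 lowest canonical genes thus overlapped in level with Rps27rt, the highest paralog, at 98.0 and 58.1 TPM.

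The P stalk recruits translation factors to the ribosome, and its 4 genes were all higher in replicate 1 on the deposited scale, though Rplp0 was not with TPM rescaled over coding genes, nor Rpl12 with TMM or DESeq2 size factors. Rplp0, its scaffold, had 515 TPM in replicate 1 and 483 TPM in replicate 2. Rplp1 had 420 and 351 TPM and its partner Rplp2 had 233 and 157 TPM. Rpl12, at the base of the stalk, had 454 and 387 TPM. Rplp2 was below Rplp1 in both libraries, and the spread between replicates within each gene was smaller than that gap.

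Of the pair that joins 5S ribosomal RNA, Rpl11 had 483 TPM in replicate 1 and 327 TPM in replicate 2. Rpl5 had 145 and 125 TPM, below Rpl11 in both. Processed pseudogene Gm15500, which matches Rpl5 at 100% identity over 1018 bases, was given 175 and 209 TPM. With all its copies added, the sum for Rpl5 was 320 TPM (replicate 1) and 335 TPM (replicate 2), and for Rpl11 573 and 399 TPM, so that Rpl5 was still below Rpl11 in both.

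Among the 8 genes at the peptide exit tunnel, the medians were 269 TPM (replicate 1) and 252 TPM (replicate 2). After Rpl4 and Rpl17 came Rpl19 at 525 and 414 TPM. Rpl23a, a docking site at the exit, had 268 and 301 TPM, and Rpl26 had 233 and 200 TPM. Rpl31 had 270 and 202 TPM and Rpl35 had 91.8 and 123 TPM. Rpl39 was lowest and Rpl4 highest of the list in both libraries.

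Some ribosomal proteins are made as fusions with ubiquitin or a ubiquitin-like protein. Rps27a, a ubiquitin fusion, had 132 TPM (replicate 1) and 128 TPM (replicate 2), and Fau, which carries the 40S protein eS30, had 165 and 238 TPM. Fau was higher than Rps27a in both libraries. Rack1, a signalling scaffold on the 40S subunit, had 318 and 317 TPM.

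All 18 listed Diamond-Blackfan genes were detected in both libraries, with medians of 252 TPM (replicate 1) and 181 TPM (replicate 2). Rps26 was the highest, followed by Rps24 at 556 and 499 TPM, Rps27 at 399 and 455 TPM, Rpl11, and Rps10 at 479 and 330 TPM. Rps19, the gene most often mutated in the disease, had 130 and 129 TPM, below the list's median in both. The 5 of lowest mean were Rps29, Rpl35a, Rpl27, Rpl35 and Rps28, at 43.5 to 136 TPM in replicate 1 and 75.4 to 123 TPM in replicate 2. The list median fell within the middle range of the canonical genes in both libraries.

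Genes that build the ribosome stood lower. The 25 listed biogenesis factors were all detected in both libraries, with medians of 26.1 TPM (replicate 1) and 24.98 TPM (replicate 2). Npm1, the nucleolar chaperone, had 600 and 601 TPM, Nop56 of the box C/D complex had 318 and 289 TPM, and Ncl, the nucleolar protein nucleolin, had 273 and 280 TPM. Dkc1, the pseudouridine synthase, had 85.5 and 85.7 TPM and Nop58 had 73.0 and 92.0 TPM. Of the 25, 4 were over 2-fold higher in replicate 2, against 12.1% of the 11189 coding genes detected in either library. Among them were Eif6, which keeps subunits apart, at 4.91 and 57.3 TPM, and Nob1, the nuclease that matures 18S RNA, at 2.78 and 19.5 TPM. These 2 had the largest differences of the list and were named after their values were seen. The 6 listed assembly chaperones had medians of 12.3 and 12.1 TPM. Heatr3, which carries Rpl5, led at 30.4 and 24.9 TPM, followed by Aamp at 17.7 and 28.1 TPM and Bccip at 21.1 and 13.4 TPM. Grwd1, which carries Rpl3, had 3.43 and 10.9 TPM, and Rrs1, which acts in 5S assembly, had 5.03 and 8.13 TPM.

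Every paralog lay below its canonical partner in both libraries. Rpl36al had 39.3 TPM in replicate 1 and 21.7 TPM in replicate 2, against 188 and 138 TPM for Rpl36a. The log2 ratio of paralog to partner was −2.46 ± 0.29 (SD, n = 2), with 0.1 TPM added to each value. Rps27rt, a retrotransposed copy of Rps27, had 98.0 and 58.1 TPM, against 399 and 455 TPM for Rps27, a log2 ratio of −2.50 ± 0.67. Rps27l, a p53-inducible homolog, had 24.7 and 24.0 TPM, a log2 ratio to Rps27 of −4.13 ± 0.16.

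The Rps27 ratios lean on the length correction. Of its 255 bases only 133 in replicate 1 and 126 in replicate 2 counted as effective length, against 248 and 240 bases for Rps27rt. In expected counts, Rps27rt had 779 and 253, against 1710 and 1042 for Rps27. The order was thus the same before that correction, by a smaller margin.

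Rpl22l1, which can take the place of Rpl22 and is repressed by it in mice, had 19.9 TPM in replicate 1 and 12.1 TPM in replicate 2, against 234 and 133 TPM for Rpl22. Their log2 ratio of −3.50 ± 0.07 (SD, n = 2) had the smallest SD of the detected pairs as deposited, but with sequence copies added to both genes it was −3.15 ± 0.57. Transcripts annotated as protein coding held only 1.18% of the Rpl22l1 signal in replicate 1 and 0% in replicate 2. Rpl7l1, a nucleolar homolog of Rpl7, had 16.9 and 19.3 TPM, against 133 and 242 TPM for Rpl7, a log2 ratio of −3.30 ± 0.47. As a share of the paralog and its partner together, the 5 detected paralogs held means of 5.41% to 15.5%. With 2 libraries an exact two-sided sign-flip test cannot give a p below 0.5, so the direction in both libraries is given without a test.

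**Figure D2:**
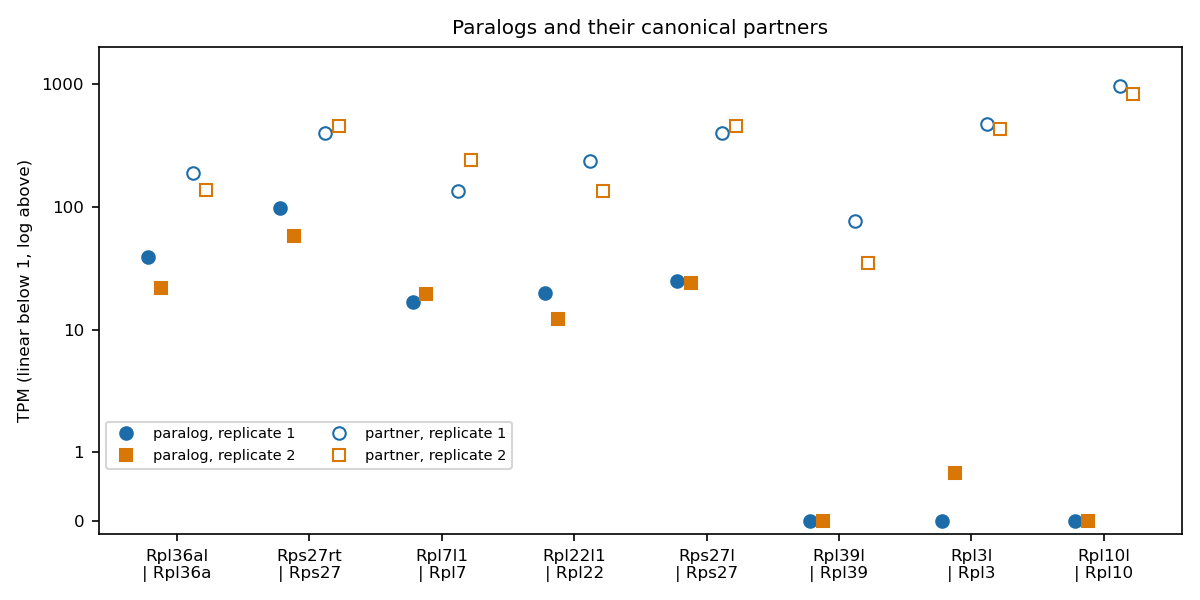
TPM of each paralog (filled, left) and its canonical partner (open, right) in replicate 1 (circles) and replicate 2 (squares), linear below 1 and log above. All paralog values lie below those of the partner in the same library, and Rpl39l and Rpl10l are at 0 in both.

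The remaining paralogs are known for other tissues. Rpl3l, expressed in heart and skeletal muscle, had no counts in replicate 1 and an expected count of 6, or 0.70 TPM, in replicate 2, against 468 and 430 TPM for Rpl3. Rpl10l, which replaces Rpl10 in male germ cells, had no counts in either library, against 956 and 828 TPM for Rpl10. A count of 0 allows up to 3 counts, or 0.104 TPM in replicate 1 and 0.185 TPM in replicate 2, which puts Rpl10l at least 9211-fold and at least 4471-fold lower than Rpl10. Rpl39l, the testis form of Rpl39, also had no counts, and its limits of 0.168 and 0.302 TPM put it at least 457-fold and at least 115-fold lower than Rpl39. These limits cover counting error only.

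Growth signals control translation of these mRNAs through the pyrimidine tract at the 5′ end. The Rps27 family shows how the sequence around the annotated start differs between paralogs. Windows of 30 bases around the annotated RefSeq start (GRCm38.p6), 15 on each side, are given 5′ to 3′. The longest unbroken runs of C and T, where they have at least 5 bases, are in capitals. The first 15 bases lie before the annotated start, so a run or part of a run there is not in the annotated mRNA. The windows are chr3:90213634-90213663 (minus strand) for Rps27, chr9:114982725-114982754 (minus) for Rps27rt and chr9:66946071-66946100 (plus) for the first of the Rps27l entries.
Rps27rt: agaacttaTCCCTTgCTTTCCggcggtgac
Rps27l: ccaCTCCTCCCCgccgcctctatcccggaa
Rps27: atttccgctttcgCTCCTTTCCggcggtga

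The longest runs had 6 bases in Rps27rt, which has 2 of that length, 9 in Rps27l and 9 in Rps27. The other Rps27l entry has none of 5 bases. The Rps27l run lies wholly before the annotated start, while the Rps27 run crosses it. Of the 2 runs in Rps27rt, 1 lies before the start and the other begins at it. CTTTC occurs in the windows of Rps27rt and Rps27 and in neither Rps27l window. Rpl22l1 at chr3:28805493-28805522 (plus) had a run of 10 bases. Its partner Rpl22 has 2 entries, with no such run at chr4:152325711-152325740 (plus) and 2 runs of 5 bases at chr4:152324421-152324450 (plus). Rpl36al and Rpl36a had runs of 5 bases. Of the other windows, several of canonical genes hold long runs. Rps6 at chr4:86857353-86857382 (minus) had a run of 10 bases, without CTTTC, and its window is not printed. The other 4 are printed below, and all hold CTTTC. They are Rpl7a at chr2:26910792-26910821 (plus), Rpl35a at chr16:33056467-33056496 (plus, the second RefSeq entry, the others having runs of 5 bases or none), Rpl28 at chr7:4792950-4792979 (plus) and Rpl38 at chr11:114668565-114668594 (plus), chosen after the sequences were seen.
Rpl22l1: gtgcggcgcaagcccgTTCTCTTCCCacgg
Rpl22 (entry 1): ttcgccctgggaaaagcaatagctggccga
Rpl22 (entry 2): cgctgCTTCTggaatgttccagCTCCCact
Rpl7a: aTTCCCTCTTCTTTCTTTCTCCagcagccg
Rpl35a: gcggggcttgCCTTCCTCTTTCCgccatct
Rpl28: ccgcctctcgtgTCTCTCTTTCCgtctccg
Rpl38: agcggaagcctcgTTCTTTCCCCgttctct

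The runs had 21 bases in Rpl7a, 13 in Rpl35a, 11 in Rpl28 and 10 in Rpl38. Each of these runs crosses the annotated start, so only a part of it lies in the annotated mRNA. Promoter sequences matched 57 of the 77 canonical genes and all 8 paralogs. CTTTC on the gene's strand, within 50 bases of the start, occurred in 31 of the 57 (54.4%) and in 3 of 8 paralogs, against 14.6% of all 27025 genes with a promoter entry. The same letters read on the other strand, GAAAG, occurred in 6 of the 57 (10.5%) and in 3 of 8 paralogs, against 13.8%. CCGGAAG on either strand, within 250 bases before to 50 after the start, was found in 24 of the 57 (42.1%) and in 2 of 8 paralogs, against 9.93%. TATAAA in the 50 bases before the start was found in none of the 57 and in 1 of 8 paralogs, against 3.15%. These motifs were chosen with the sequences seen, a match is not a bound site, and the annotated start may not be the one used in these cells.

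The canonical genes agreed between the libraries, with Pearson's r of 0.94 and Spearman's rho of 0.94 across the 77 genes on the log2 TPM scale, as a description. The median difference of log2(TPM + 1), replicate 1 minus replicate 2, was 0.20. Of the 77 genes, 53 were higher in replicate 1 (40 with TPM rescaled over coding genes, 46 with TMM or DESeq2 size factors), and 54.9% of the 11189 coding genes detected in either library were. The 320 coding genes other than members with a mean of at least 100 TPM had a median of 0.18, with 67.8% higher in replicate 1. The size of these medians, and for all coding genes their sign, depends on the scaling. Normalising with TMM, with DESeq2 size factors or by rescaling TPM over coding genes shifted the median of the 11189 coding genes by −0.14, −0.15 and −0.16. Relative to that median, the canonical genes stood 0.11 higher as deposited, and 0.13, 0.13 and 0.10 higher under these scalings.

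Over 2-fold apart were 4 of the 85 members, 2 in each direction, against 11.2% of coding genes higher in replicate 1 and 12.1% higher in replicate 2. Among coding genes other than members of at least 100 TPM the shares were 3.44% and 0.625%. Rps29 and Rpl36, a 60S protein with 103 TPM (replicate 1) and 215 TPM (replicate 2), were lower in replicate 1, by log2 differences of −1.12 and −1.05. They were over 2-fold apart under every scaling tried. Rpl24, a 60S protein that bridges the subunits, had 195 and 85.8 TPM, a difference of 1.17, and Rpl39 a difference of 1.12. Neither passed 2-fold under TMM, DESeq2 size factors or rescaled TPM, so that the split was 0 higher in replicate 1 and 2 in replicate 2 under TMM or DESeq2. With rescaled TPM it was 0 and 4, with Rpl7 (−1.03) and Rpl37 (−1.01) added in replicate 2. With the signal of sequence copies added on the deposited scale, 3 members were over 2-fold apart. Rpl24 was then not among them, at 267 and 156 TPM, a difference of 0.78. Other cells' markers, neutrophil ones above all, also differed between these libraries, and their part in these differences was not tested.

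**Figure D3:**
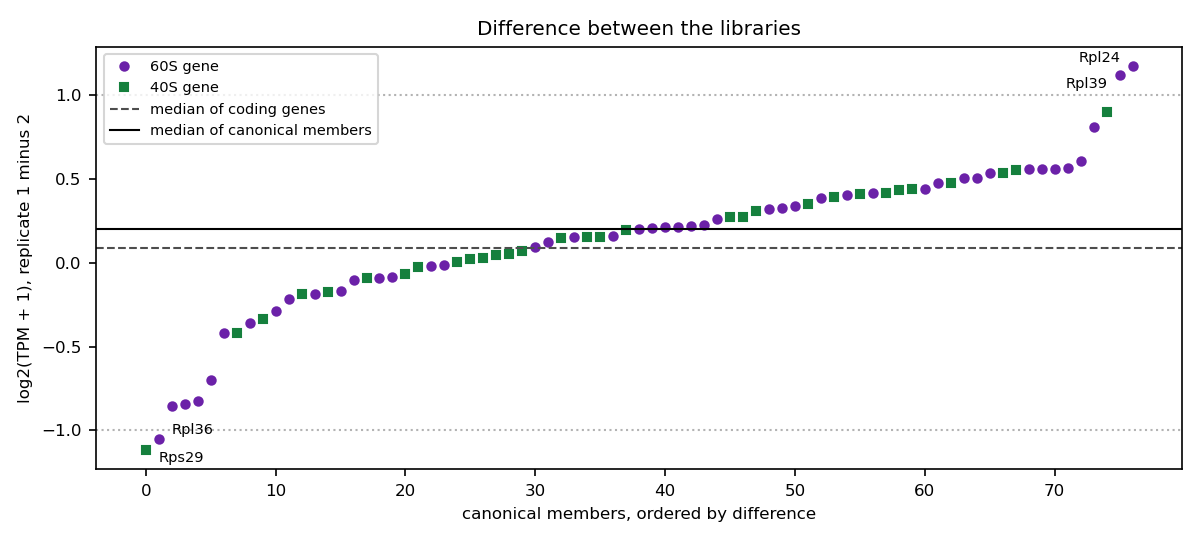
Difference of log2(TPM + 1), replicate 1 minus replicate 2, for the 77 canonical genes in order of size, with 60S genes as circles, 40S genes as squares and dotted lines at 2-fold. The solid line marks the canonical median of 0.20 and the dashed line the coding median of 0.09, on the deposited scale, and Rpl24 and Rpl39 are not over 2-fold under the 3 other scalings.

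Reads of these genes are hard to place, because the genome holds many near-identical copies. Comparing coding transcripts of members with other annotated transcripts found 774 copies at 90% identity or more, 760 of them pseudogenes, and 75 of the 77 canonical genes had at least 1. Rpl21 had the most, with 60. Pseudogenes named after a ribosomal protein held 5.23% of the TPM of members and pseudogenes together in replicate 1 and 4.76% in replicate 2 (5.00% ± 0.33, SD, n = 2). With pseudogenes found by sequence included, the share was 9.28% and 9.26%.

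The signal on copies was concentrated in a minority of families. Copies held at least 20% of the family's TPM in 12 of the 77 families and under 1% in 20, with a median of 4.96%. Among the 5 pseudogenes of highest mean were Rpl31-ps8 at 271 and 187 TPM, Rpl38-ps2 at 264 and 139 TPM, Gm15500 (of Rpl5) at 175 and 209 TPM, and Gm7536 (of Rpl27a) at 180 and 201 TPM. Of the 45 copies with at least 10 TPM, 40 were at least 99% identical to the member. Whether their reads came from the copy or from the member was not tested.

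For Rpl27a, copies held 202 TPM in replicate 1 and 206 TPM in replicate 2, against 94.5 and 75.2 TPM on the gene itself. Counted with its copies, Rpl27a would leave the 10 lowest, at 296 and 281 TPM. For Rpl37, copies held 27.2 and 36.4 TPM, nearly all on the retrotransposed copy Rpl37rt, against 16.9 and 31.2 TPM on the gene. The family total of 44.2 and 67.6 TPM was still low. Rpl22l1, by contrast, had a copy, Gm15421, at 0.11 and 7.79 TPM, against 19.9 and 12.1 TPM on the gene, so that the sum was 20.0 TPM (replicate 1) and 19.9 TPM (replicate 2).

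Among the members of highest level, the share on copies varied. Copies held 2.51% ± 0.59 (SD, n = 2) of the family TPM for Rps26 and 0.28% ± 0.03 for Rpl4. The mean share was 2.93% for Rps2 and 4.30% for Rpl29. It was 7.52% for Rpl10, 8.82% for Rpl17, 10.5% for Rpl28, 10.8% for Rpl21 and 11.0% for Rps6. The posterior SD of the count, which the authors' quantifier gave, was under 1% of the count for 66 of 82 detected members in replicate 1 and 60 in replicate 2. It reached 4.02% for Rpl37 in replicate 1 and 7.32% for Rpl24 in replicate 2. It describes the sharing of reads within each library only.

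**Figure D4:**
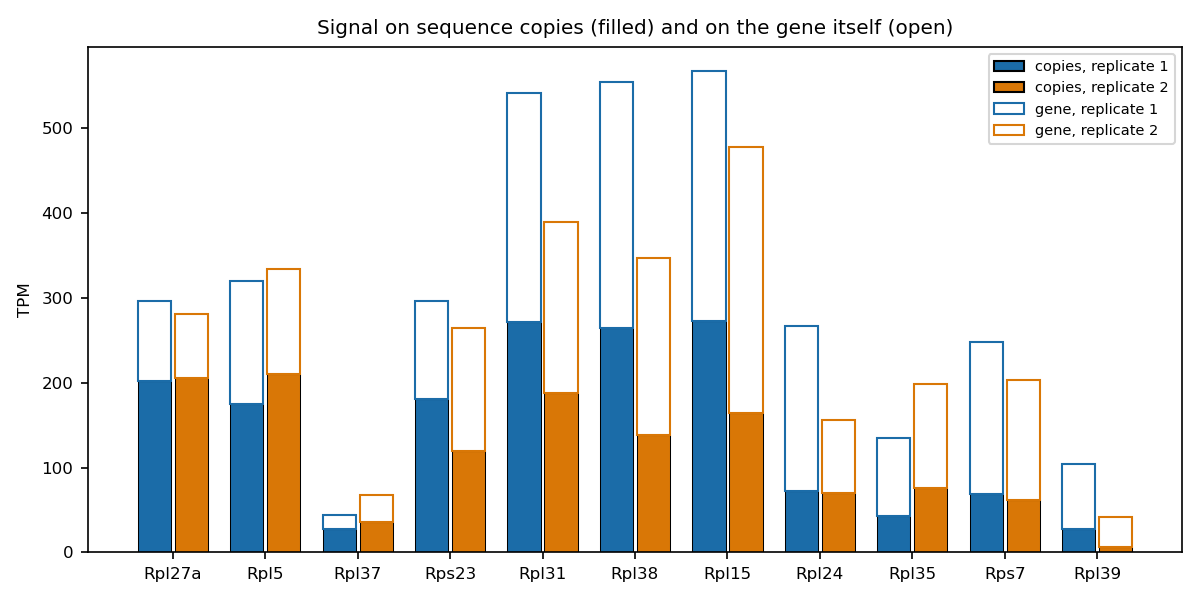
TPM on sequence copies (filled) and on the gene itself (open, stacked above) for 11 of the 12 canonical families with at least 20% on copies, replicate 1 in blue and replicate 2 in orange. Rpl27a has 202 and 206 TPM on copies below 94.5 and 75.2 TPM on the gene, while Rpl37 has 27.2 and 36.4 TPM below 16.9 and 31.2 TPM.

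At the transcript level, 375 transcripts belonged to the members, and transcripts annotated as protein coding held 86.7% of member TPM in replicate 1 and 87.5% in replicate 2. Retained intron transcripts held 6.58% and 6.14%, processed transcripts without an annotated reading frame 4.45% and 4.33%, and nonsense-mediated decay transcripts 0.84% and 0.77%. Transcripts absent from M21 have no biotype here, and they held 55.2% and 46.2% of Rpl13a and 63.2% and 38.6% of Rpl18, so the coding share of these 2 genes is a lower limit. The leading transcript held a median of 77.9% of a gene's signal in replicate 1 and 69.2% in replicate 2. Of 82 detected members 60 had several annotated transcripts. The leading transcript differed between libraries in 17, namely Rpl5, Rps2, Rpl12, Rpl10, Rps19, Rps18, Rplp2, Rpl34, Rps6, Rps28, Rpl27, Rps15a, Rpl30, Rpl38, Rps10, Rpl22l1 and Rps27l. The lowest mean shares on it belonged to Rpl5, Rps2, Rpl12, Rps3 and Rpl10, each below 50%.

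A transcript not annotated as coding led in both libraries for 6 members, Rpl12, Rps20, Rpl23, Rpl22l1, Rpl24 and Rpl35. For Rps20, retained intron transcript Rps20-201 held 73.1% in replicate 1 and 72.6% in replicate 2. For Rpl24, retained intron transcript Rpl24-202 held 100% and 62.0%, and the gene overlaps Gm28037 on the same strand, which had 47.3 and 48.6 TPM. For Rpl35, processed transcript Rpl35-203 held 86.6% and 80.8%. These splits were stable between the libraries for Rps20 and Rpl35 and not for Rpl24.

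Rps27l was the clearest disagreement. Its signal lay wholly on processed transcript Rps27l-204 in replicate 1, with 351 expected counts, and 88.2% on coding transcript Rps27l-201 in replicate 2, with 142 counts. Its gene level was 24.7 and 24.0 TPM all the same. Rps24, whose last exons are alternatively spliced, was stable by comparison, with 73.6% and 81.0% on Rps24-201 and 26.4% and 19.0% on Rps24-202, both coding.

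**Figure D5:**
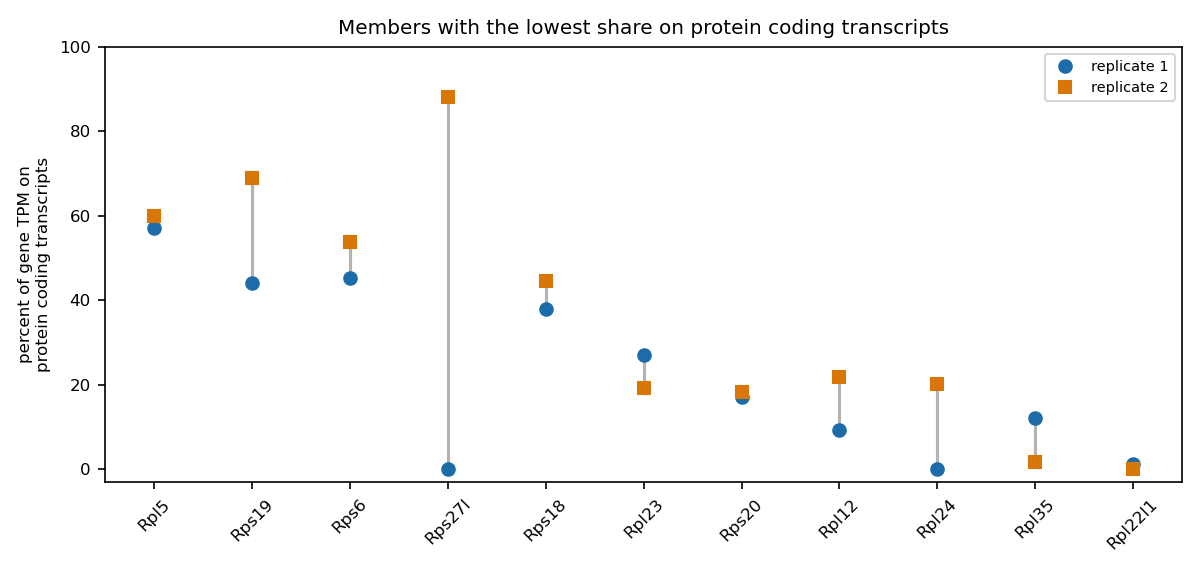
Percent of each gene's TPM on protein coding transcripts, for the 11 detected members with a mean below 60% and at most 10% on transcripts without an M21 biotype, in replicate 1 (circles) and replicate 2 (squares). Rps27l stands at 0% in replicate 1 and 88.2% in replicate 2, while Rps20 and Rpl22l1 are low in both.

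Members also share features of position. The spans of 30 of the 77 canonical genes (39.0%) hold annotated small nucleolar RNAs on the same strand, which guide modification of ribosomal RNA, 58 in all, against 1.06% of the other coding genes. None of the 8 paralogs did. Hosts had medians of 281 TPM (replicate 1) and 282 TPM (replicate 2), and canonical genes without one 270 and 215 TPM. Chromosome 7 holds 14 canonical genes (18.2%), against 9.08% of coding genes. Of the 85 members 29 overlap another annotated gene, 24 of them on the opposite strand, and since the sources used here do not give the quantifier's strand setting, their levels are uncertain by the partner's signal. The partners measured had at most 51.2 TPM in replicate 1 (Ube2s, opposite Rpl28) and 48.6 TPM in replicate 2 (Gm28037).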

How the data were processed

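Gene and transcript tables of 2 libraries were used. Per the deposited text files, the assembly is mm10 and the annotation GENCODE M4, and per the file headers the columns are those RSEM writes. The sources used here do not give the aligner, tool versions or strand setting. Expected counts (estimated, with shared reads split) were deposited by the authors, as were TPM, posterior mean TPM and FPKM, which was not used. The percent of gene signal per transcript was deposited in the transcript tables. The deposited credibility bounds, a signal on the TPM scale, have no stated level and were not used in a result.

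Members and lists were chosen with earlier results of these data known. Symbols matched 42462 identifiers (98.0%), and biotypes and positions came from GENCODE M21 of the same build. Rows naming no Ensembl gene were left out. Detection required 1 TPM and an expected count of 10, differences used a pseudocount of 1, paralog ratios 0.1, and a count of 0 was given a limit of 3 counts. Copies were found with BLAST 2.17.0 at 90% identity or more, aligned over at least 50% of the copy and over either 80% of it or 200 bases. No test across genes was made, and steps were tested on simulated data. Named genes were all paralogs, the 10 highest and 10 lowest canonical genes, members undetected or over 2-fold apart, whole lists of the stalk, 5S, tunnel and ubiquitin groups, the 5 highest of other lists (and lowest for Diamond-Blackfan), the 5 highest pseudogenes, and members with differing, noncoding or low-share leading transcripts, with Rps24; Rpl36a, Rps27, Rps19, Eif6, Nob1 and others given as partners or examples were added after their values were seen. Scaling alternatives used edgeR 4.0.16 (TMM) and DESeq2 1.42.0 (size factors) in R 4.3.3 on rounded expected counts. Other steps ran in Python 3.11.15 with pandas 2.3.3 and scipy 1.17.1. Promoters are from RefSeq (GRCm38.p6). Results for 2 genes, and a copy of 1 of them, that these rules name are not reported here.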

Additional observations from a re-analysis of the deposited data

How the results depend on the processing

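The 82 members detected in both libraries were also 82 at 0.5 TPM with 5 counts, at 5 TPM with 50 counts and in each library alone. Dividing expected counts by annotated length moved the member median to 193 TPM, the member share of coding TPM to 8.22% and the 60S over 40S log2 ratio to 0.011. Adding the signal of sequence copies, an alternative chosen after seeing the data, gave a median of 270.0 TPM and a subunit ratio of 0.22. The median replicate difference was 0.023 with TPM rescaled over coding genes. With TMM, with DESeq2 size factors and with TMM without a filter on low counts (also added later), 2 members were over 2-fold apart rather than 4. The pseudogene share was 2.84% by expected counts and 9.27% with pseudogenes assigned by sequence. The causes of these shifts were not tested, apart from what each setting adds or removes.

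Leaving out one replicate gave medians of 208 to 234 TPM, shares of 8.99% to 9.45%, subunit ratios of 0.04 to 0.06, pseudogene shares of 4.76% to 5.23%, leading transcript shares of 69.2% to 77.9% and a rho with length of 0.07 to 0.10. Under the alternatives run, 36 values of the main results moved by less than the spread between replicates (counts by less than 1.5 times), 11 moved by more, as given above, and none reversed a direction. The 36 include the median replicate difference with TMM (0.071) and with DESeq2 size factors (0.067), against 0.20 as deposited. They also include the count of 4 members over 2-fold apart with rescaled TPM, whose split by direction differed. Single paralog ratios moved beyond their spread 7 times and stayed within it 30 times, the 7 being for Rpl10l, Rpl39l and Rpl22l1. The 36 and the 30 include values from leaving out 1 replicate, which, apart from the count of members detected, could not have moved further. With 2 libraries, the mean of both differs from either by less than their SD. No paired analysis was possible because there is a single group. Depth limits the undetected paralogs, and pools of 100 cells limit all levels to this spread of 2 libraries.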
